A study of Mus musculus with 8 samples.

Results

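The genes described here are 10 genes that mark regulatory T cells (Tregs): Foxp3, Il2ra, Ikzf2, Ikzf4, Ctla4, Tnfrsf18, Tnfrsf4, Nrp1, Lrrc32 and Itgae. They were taken by gene symbol from a table of 28239 symbols, and all 10 were found and passed the filter on low counts, among 12700 genes tested. The libraries were made from naïve splenic CD4+ T cells of mice whose strain background the labels give as C57BL/6 in both groups, isolated by magnetic negative selection and grown toward Tregs in culture until day 2. The medium held TGF-β at 5 ng/ml, IL-2 at 100 U/ml, and 1 activation bead against CD3 and CD28 for each cell. There were 4 libraries from wild-type (WT) mice and 4 from mice labelled Alox15-/-, a label for loss of the 12/15-lipoxygenase gene, and both groups received the same culture. By the study's methods the WT mice came from Charles River and the Alox15-/- mice from The Jackson Laboratory, so the supplier cannot be told apart from the group. The mice of the study were females and males of 10 to 12 weeks, and the sex behind each library is not given in the sources used here. The comparison asks whether the transcripts of the Treg programme differ between libraries with these labels.

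Foxp3 encodes the forkhead transcription factor that defines Tregs, and T cells that meet antigen together with TGF-β and IL-2 can switch it on outside the thymus. Around Foxp3 stands a group of genes that Tregs express at raised levels. Helios (Ikzf2) and Eos (Ikzf4) are zinc finger factors of the Ikaros family, and Eos is a corepressor that works with Foxp3. CD25 (Il2ra) is the subunit that gives the IL-2 receptor its high affinity, CTLA-4 takes CD80 and CD86 off antigen-presenting cells, and GITR (Tnfrsf18) and OX40 (Tnfrsf4) are costimulatory receptors of the TNF receptor superfamily. Neuropilin-1 (Nrp1) is a semaphorin co-receptor, GARP (Lrrc32) holds latent TGF-β on the cell surface, and CD103 (Itgae) is the integrin αE chain, which pairs with β7 and binds E-cadherin on epithelium. Several of these genes, CD25, CTLA-4, GITR and OX40 among them, are also raised in any activated T cell.

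Levels are given as tag counts scaled to library size (CPM) by the TMM method. The assay, MACE-seq, counts tags near the 3′ ends of transcripts. Group differences were tested between libraries, and shares or ratios of tags between genes are given as descriptions. Libraries held 3723151 to 9538962 counts each, and the median was 6417785 for WT and 4794416 for the Alox15-/- label. The group effect is a log2 fold change, libraries labelled Alox15-/- over WT, with its standard error (SE), from edgeR's quasi-likelihood test with Benjamini-Hochberg adjustment over the 12700 genes. A gene was called when its adjusted p was under 0.05, and no p-value below was adjusted over these 10 genes alone.

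The targeted gene went against its label. Alox15 had 70.2, 68.8, 63.4 and 65.0 CPM in the libraries labelled Alox15-/- and 1.87, 2.55, 7.73 and 8.98 CPM in those labelled WT, a log2 fold change of 3.65 with SE 0.30 (edgeR adjusted p = 1.1e-05). Which part of the gene was disrupted is not given in the sources used here, and a 3′ tag outside that part does not check a genotype. Directions below are therefore directions between labels.

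The groups overlapped in the summed markers of T cells, B cells and CD8 T cells and were separate in 6 lists of markers of other blood cells. The summed level of 12 T cell genes averaged 3575 CPM with an SD of 185 under the Alox15-/- label and 3766 CPM with an SD of 245 in WT, over n = 4 libraries each (exact permutation test, two-sided p = 0.371). Summed levels ran from 924 to 3495 CPM against 54.1 to 141 CPM for 8 erythroid genes, from 143 to 366 CPM against 59.0 to 83.5 CPM for 8 mast cell and basophil genes, and from 20.8 to 76.4 CPM against 1.25 to 10.4 CPM for 8 eosinophil genes. They ran from 49.8 to 333 CPM against 12.4 to 21.3 CPM for 13 myeloid and dendritic cell genes, and from 106 to 204 CPM against 58.2 to 70.8 CPM for 10 NK and γδ T cell genes. For 5 megakaryocyte and platelet genes they ran from 3.12 to 13.8 CPM against 0.637 to 1.51 CPM. In each of these 6 lists every library labelled Alox15-/- was above every WT library, with an exact two-sided permutation p of 0.0286, the smallest that 4 against 4 libraries allow (0.0429 after adjustment over 9 lists). The 2 CD8 genes summed to 18.1 ± 4.56 CPM (SD, n = 4) and 28.4 ± 4.75 CPM (SD, n = 4, exact permutation p = 0.0857), and 8 B cell genes to 274 CPM in both groups. Within the B cell list Ms4a1, which encodes CD20, was called lower, at 0.547 ± 0.305 against 3.25 ± 0.785 CPM (SD, n = 4 each), a log2 fold change of -2.64 (edgeR adjusted p = 0.00413), and it passed the filter on low counts only through the WT libraries. None of the defining markers in these lists was at 0 in all libraries.

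Of the 10 Treg genes, 1 was called, Itgae, which was higher in the libraries labelled Alox15-/-, and none was called lower. Over all tested genes, 1.24% were called, 1.05% as higher and 0.197% as lower. The other 9 genes did not pass, and 8 of the 10 log2 fold changes were below 0, as were 51.8% of those of all tested genes. The median log2 fold change of the 10 genes was -0.11, beside -0.0073 over all tested genes. At an unadjusted p under 0.05 stood 2 of the 10, Itgae and Lrrc32, where 7.84% of all tested genes did. Summed over the 10 genes, the level averaged 2466 CPM with an SD of 112, against 2636 CPM with an SD of 185 in WT, n = 4 libraries each (exact permutation test, two-sided p = 0.2). In bulk RNA, fewer cells that express a gene and less RNA per cell cannot be told apart.

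**Figure D1:**
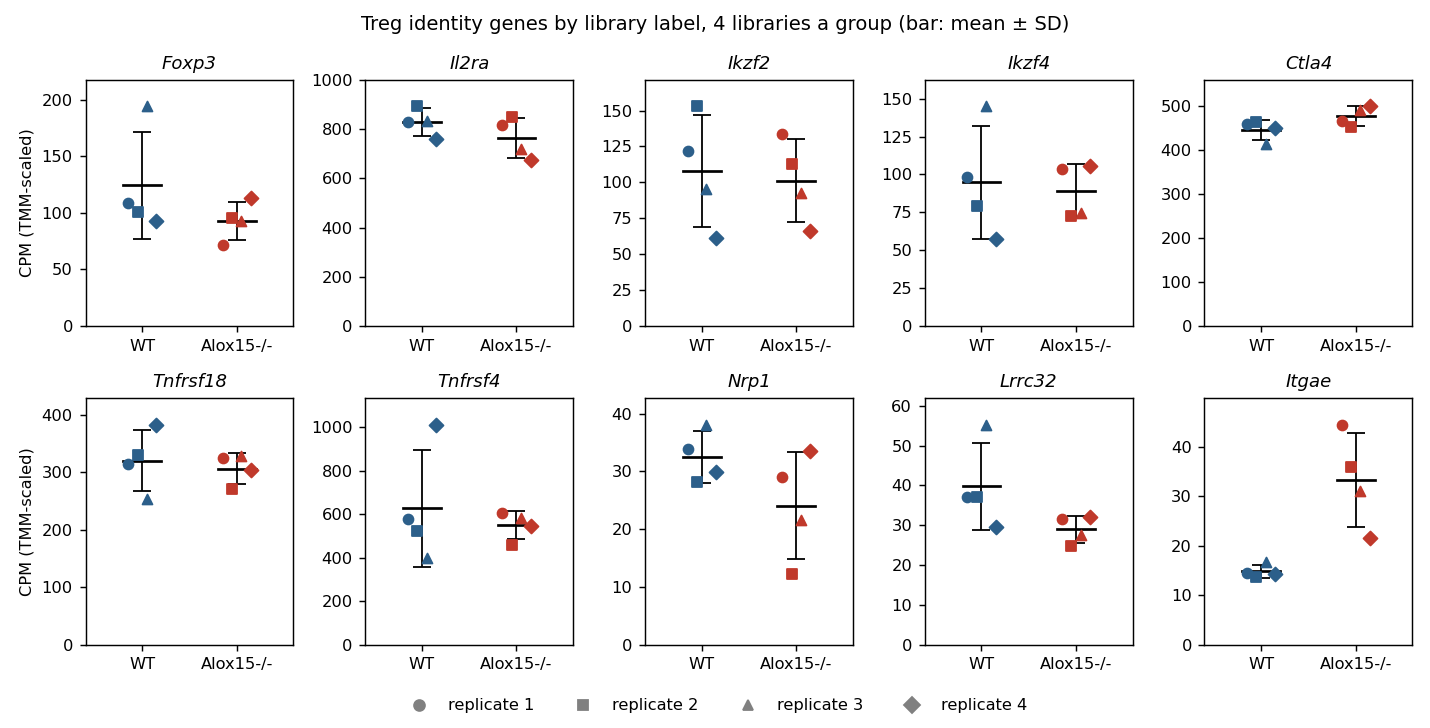
TMM-scaled CPM of the 10 Treg genes, 1 panel a gene with its own axis from 0, in the 4 libraries labelled WT (blue) and the 4 labelled Alox15-/- (red), with marker shapes for replicate numbers and bars for the mean and SD. The groups overlap in every panel except Itgae, and WT replicate 3 stands above the other WT libraries for Foxp3 at 194 CPM.

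Upstream sequences are shown because they bear on the genes that the values below turn on: Foxp3 itself, and the neighbouring receptor genes Tnfrsf4 and Tnfrsf18, whose levels moved together. The RefSeq promoter table of GRCm38.p6 holds windows for 6 of the 10 genes, and each window printed here is the 250 bases before a start site, 5′ to 3′ on the plus strand, on which these genes lie. The Foxp3 window is chrX:7579426-7579675 (the first of its 2 windows), that of Tnfrsf4 is chr4:156013445-156013694 and that of Tnfrsf18 is chr4:156026072-156026321. Capitals mark matches, on either strand, to the SMAD letters CAGAC (read as GTCTG on the other strand) and the STAT letters TTCNNNGAA.
Foxp3: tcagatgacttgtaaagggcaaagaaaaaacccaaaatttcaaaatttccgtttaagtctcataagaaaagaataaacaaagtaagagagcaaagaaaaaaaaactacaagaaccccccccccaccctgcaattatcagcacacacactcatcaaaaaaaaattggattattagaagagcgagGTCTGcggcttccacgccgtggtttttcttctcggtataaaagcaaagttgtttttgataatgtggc
Tnfrsf4: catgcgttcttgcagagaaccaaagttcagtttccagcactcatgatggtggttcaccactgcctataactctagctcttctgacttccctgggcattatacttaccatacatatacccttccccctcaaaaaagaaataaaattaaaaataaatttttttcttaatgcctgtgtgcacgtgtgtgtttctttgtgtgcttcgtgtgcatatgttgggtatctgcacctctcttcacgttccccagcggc
Tnfrsf18: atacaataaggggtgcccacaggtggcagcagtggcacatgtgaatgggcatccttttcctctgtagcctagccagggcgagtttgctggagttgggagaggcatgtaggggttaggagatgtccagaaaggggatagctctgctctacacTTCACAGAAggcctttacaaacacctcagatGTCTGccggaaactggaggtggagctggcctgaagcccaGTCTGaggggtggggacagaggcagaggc
The Foxp3 window shown has 1 SMAD match, 67 bases before the start, and no STAT match. Its second window, chrX:7580233-7580482, has no SMAD match and 1 STAT match, 139 bases before the start, and a GC content of 46%. That of Tnfrsf18 has 2, and 1 STAT match, and that of Tnfrsf4 has none of either. SMAD letters occur in 42.2% and STAT letters in 7.02% of the 32851 windows of this length in the table, and searches for the forkhead letters TGTTTAC (3.17% of windows) and the RUNX letters TGTGGT (14%) found no match in any of these windows. A match is a description of letters and not a bound site. In the windows shown, the GC content was 37.6% for Foxp3, 42.8% for Tnfrsf4 and 56% for Tnfrsf18, beside a mean of 53.2% over all windows.

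Foxp3 (ENSMUSG00000039521.13) lies on the plus strand of chromosome X from 7573644 to 7595245 in GRCm38. Its level was 71.4, 95, 92.6 and 113 CPM in the libraries labelled Alox15-/- and 109, 101, 194 and 92.9 CPM in those labelled WT, resting on 297 to 1937 counts. The groups overlapped: the highest library labelled Alox15-/- exceeded 3 of the 4 WT libraries, and WT replicate 3 stood far above the rest. The means were 93.0 ± 17.0 CPM (SD, n = 4) and 124 ± 47.2 CPM (SD, n = 4), a log2 fold change of -0.42 with SE 0.20 and a 95% interval from -0.85 to 0.012 (edgeR adjusted p = 0.655). As a ratio this is 0.747, with an interval from 0.553 to 1.01. Without WT replicate 3 the log2 fold change was -0.11 (edgeR adjusted p = 0.878), and with no filter on low counts it was -0.45 and was called (edgeR adjusted p = 0.0189). The effect was nearly the same in that setting, but the unadjusted edgeR p was 0.000211 in place of 0.0558. That call is therefore not read as a difference between the groups. The last 1437 bases of Foxp3 are shared with Ccdc22, a gene on the opposite strand from 7593809 to 7605517, and whether tags were counted by strand is not given in the sources used here. Ccdc22 averaged 49.7 ± 4.94 CPM in WT and 41.8 ± 4.4 CPM under the Alox15-/- label (SD, n = 4 each). The part of Ccdc22 tags in the Foxp3 counts was not tested.

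Ikzf2 (Helios, ENSMUSG00000025997.13, minus strand of chromosome 1 from 69531214 to 69687245) had 134, 113, 92.4 and 66.3 CPM in the libraries labelled Alox15-/- and 122, 153, 95.7 and 61.4 CPM in WT. Both groups spanned more than a doubling from lowest to highest library and overlapped almost entirely. Its log2 fold change was -0.10, with a 95% interval from -0.61 to 0.40 (edgeR adjusted p = 0.949). Ikzf4 (Eos, ENSMUSG00000002578.17, minus strand of chromosome 10 from 128630843 to 128645991) had 103, 72.6, 74.7 and 105 CPM in the libraries labelled Alox15-/- and 98.3, 78.9, 145 and 57.4 CPM in WT. As for Foxp3, the highest library was WT replicate 3, and the WT libraries enclosed all those labelled Alox15-/-. The log2 fold change of Ikzf4 was -0.10, from -0.57 to 0.37 (edgeR adjusted p = 0.947), and 0.19 without WT replicate 3. Among the other Ikaros family genes, Ikzf1 had 225 ± 33.1 against 253 ± 12 CPM (SD, n = 4 each), with a log2 fold change of -0.17 (edgeR adjusted p = 0.771). Ikzf3 (Aiolos) had 23.6 ± 6.48 against 16.7 ± 2.95 CPM (SD, n = 4 each), with a log2 fold change of 0.47 (edgeR adjusted p = 0.561, unadjusted p = 0.029), and 0 of 5 genes of the family were called.

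Il2ra (CD25, ENSMUSG00000026770.5, plus strand of chromosome 2 from 11642807 to 11693193) accounted for 31.0% of the summed tags of the 10 genes in the libraries labelled Alox15-/- and for 31.5% in WT. Its level was 816, 848, 719 and 673 CPM against 830, 893, 834 and 759 CPM in WT. The groups overlapped and each was narrow, with an SD of 81.8 and 55.1 CPM about means of 764 and 829 CPM (n = 4 each). Its log2 fold change of -0.12 had an interval from -0.33 to 0.095 (edgeR adjusted p = 0.838). Ctla4 (ENSMUSG00000026011.13, plus strand of chromosome 1 from 60887000 to 60915832) was the steadiest of the 10, with 465, 454, 492 and 500.0 CPM in the libraries labelled Alox15-/- and 459, 464, 413 and 450 CPM in WT. Of the libraries labelled Alox15-/-, 3 lay above every WT library and the other lay among them. The log2 fold change of Ctla4 was 0.098, from -0.089 to 0.28 (edgeR adjusted p = 0.845), and so its interval ends at a rise of 1.22 times.

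The TNF receptor genes Tnfrsf4 (OX40, ENSMUSG00000029075.6, from 156013843 to 156016612) and Tnfrsf18 (GITR, ENSMUSG00000041954.18, from 156026164 to 156028895) are neighbours on the plus strand of chromosome 4, with 9551 bases between them. Tnfrsf4 had 607, 459, 583 and 544 CPM in the libraries labelled Alox15-/- and 575, 522, 397 and 1011 CPM in WT. WT held both the lowest and the highest library, replicates 3 and 4. The log2 fold change of Tnfrsf4 was -0.19, from -0.64 to 0.26 (edgeR adjusted p = 0.875), and 0.14 without WT replicate 4. Tnfrsf18 had 324, 270, 327 and 303 CPM in the libraries labelled Alox15-/- and 314, 329, 253 and 382 CPM in WT, again with WT replicates 3 and 4 at the ends. Its log2 fold change was -0.06, from -0.32 to 0.20 (edgeR adjusted p = 0.941).

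Levels of these neighbours moved together across libraries whatever the label. Over the 8 libraries Pearson's r was 0.92 (exact permutation p = 0.00117, adjusted p = 0.0420 over 36 pairs of the 9 genes other than Itgae) and Spearman's rho was 0.74 (exact permutation p = 0.0458, adjusted p = 0.346). Without the 2 libraries farthest from the median of Tnfrsf18, WT replicates 3 and 4, r was 0.81. Within the 4 libraries labelled Alox15-/- r was 0.98 and within the 4 WT libraries 0.93. This was 1 of 36 pairs past an adjusted p of 0.05 by Pearson's r, and by rho none of the 36 passed. Tnfrsf4 tags numbered 1.57 to 1.87 times those of Tnfrsf18 in 7 libraries and 2.64 times in WT replicate 4.

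**Figure D2:**
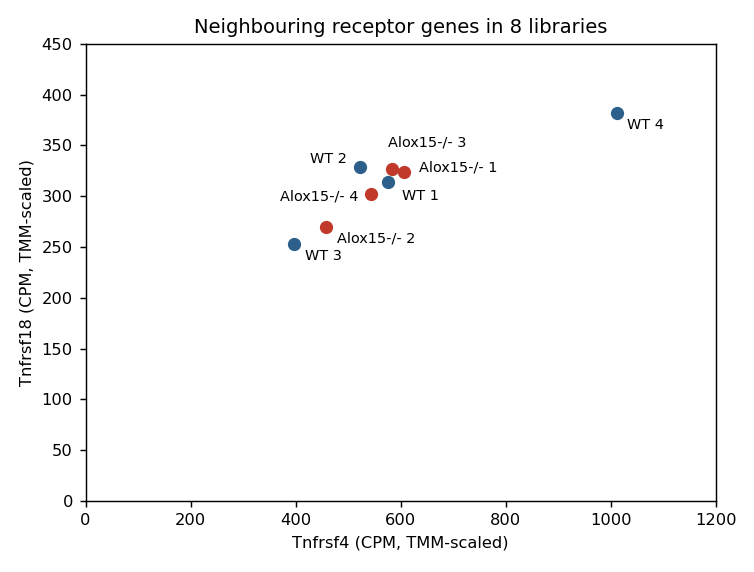
Tnfrsf18 against Tnfrsf4, both in TMM-scaled CPM on axes from 0, with 1 point per library (blue, labelled WT, and red, labelled Alox15-/-). The points rise together from WT replicate 3, at 397 and 253 CPM, to WT replicate 4, at 1011 and 382 CPM, and the libraries labelled Alox15-/- lie between them.

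Nrp1 (ENSMUSG00000025810.9, plus strand of chromosome 8 from 128358604 to 128503363) had 29.1, 12.1, 21.6 and 33.5 CPM in the libraries labelled Alox15-/- and 33.8, 28.2, 38.1 and 29.9 CPM in WT. Replicate 2 of the libraries labelled Alox15-/- was lowest by far and rests on 45 counts, while replicate 4 of that group lay within the WT range. The log2 fold change of Nrp1 was -0.42, from -0.89 to 0.057 (edgeR adjusted p = 0.702). It was -0.21 without replicate 2 of the libraries labelled Alox15-/- and -0.63 without replicate 4 of them. Lrrc32 (GARP, ENSMUSG00000090958.2, plus strand of chromosome 7 from 98489283 to 98502181) had 31.5, 24.8, 27.7 and 32.1 CPM in the libraries labelled Alox15-/- and 37.1, 37.0, 55.3 and 29.6 CPM in WT. All but 1 of the WT libraries lay above every library labelled Alox15-/-. Its log2 fold change was -0.46 with SE 0.17, from -0.83 to -0.096, with an unadjusted p of 0.0168 and an edgeR adjusted p of 0.456. Of all tested genes, 3.38% were lower at an unadjusted p under 0.05. Without WT replicate 3, the log2 fold change of Lrrc32 was -0.25 (edgeR adjusted p = 0.679), smaller than with it, as was that of Foxp3.

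**Figure D3:**
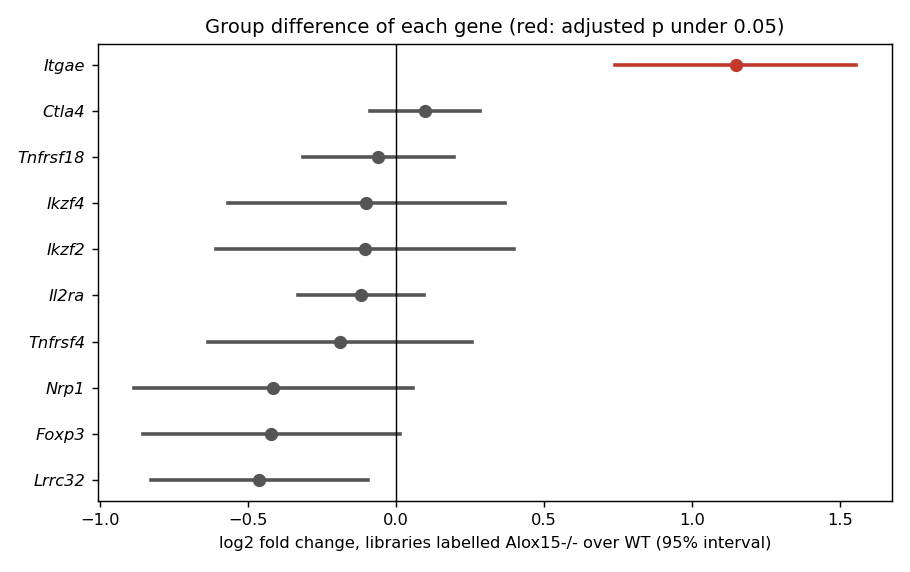
Log2 fold change of each of the 10 genes, libraries labelled Alox15-/- over WT, as points with 95% intervals, sorted by size and drawn in red where the adjusted p was under 0.05. Itgae, at 1.15, is the only gene in red, and the interval of Lrrc32 also lies off 0 although its adjusted p is 0.456.

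Itgae (CD103, ENSMUSG00000005947.11) lies on the plus strand of chromosome 11 from 73090583 to 73147446. It had 44.5, 35.9, 31.0 and 21.6 CPM in the libraries labelled Alox15-/- and 14.5, 13.7, 16.7 and 14.2 CPM in WT, resting on 68 to 185 counts. Every library labelled Alox15-/- was above every WT library, a separation in one direction or the other that 5.25% of all tested genes had. The means were 33.3 ± 9.54 CPM (SD, n = 4) and 14.8 ± 1.30 CPM (SD, n = 4), a rise of 2.22 times with a 95% interval from 1.67 to 2.94. As a log2 fold change this was 1.15 with SE 0.19 (edgeR adjusted p = 0.00422). It was called in all 17 alternative settings, with log2 fold changes from 0.98 to 1.32. Its partner chain Itgb7 had 156 ± 27.7 CPM (SD, n = 4) and 126 ± 27.3 CPM (SD, n = 4), a log2 fold change of 0.30 with SE 0.15 (edgeR adjusted p = 0.683).

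Itgae is also expressed by intraepithelial and γδ T cells and by subsets of CD8 T cells and dendritic cells, and the libraries in which it was high were those with higher NK, γδ T, myeloid and dendritic cell markers. The CD8 sum lay the other way and the B cell sum was equal in both groups. The magnetic negative selection for naïve CD4+ T cells is meant to remove all of these cells before the culture. The NK and γδ T cell list summed to 185, 204, 181 and 106 CPM in the libraries labelled Alox15-/-, and replicate 4 was lowest in it as it was for Itgae. In it Trdc, the constant segment of the δ chain, had 65.3 ± 14.1 against 18.3 ± 4.77 CPM (SD, n = 4 each), a log2 fold change of 1.82 (edgeR adjusted p = 0.0001). Replicate 4 was also lowest of its group for the erythroid, mast cell, eosinophil and myeloid sums, at 924, 143, 20.8 and 49.8 CPM, whereas the megakaryocyte and platelet sum was lowest in replicate 1, at 3.12 CPM, with 3.43 CPM in replicate 4. Replicate 1, the highest for Itgae, was not the highest for any of those 6 lists. With library size scaled to T cell genes, the log2 fold change of Itgae was 1.22. The part of these cells in the Itgae tags was not tested.

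Itgae lies on the chromosome of the targeted gene, 2.74 Mb from Alox15 (minus strand of chromosome 11 from 70344152 to 70352031). Between the genes lie 37 tested genes, of which 4 were called (10.8%, beside 1.24% of all tested genes), all higher, a window chosen after the values were seen. They are Xaf1 with a log2 fold change of 2.23, Spns3 with 2.89, Cxcl16 with 1.84 and Pfn1 with 0.65. Spns3 and Cxcl16 passed the filter on low counts only through the libraries labelled Alox15-/-, where they are high, so that only a rise could be called for them and the count of 4 is no support. The call of Cxcl16 was also lost with limma-voom (adjusted p = 0.138) and without WT replicate 1, 2 or 3 (edgeR adjusted p = 0.0765, 0.114 and 0.0613). On the other side of Alox15, within 10 Mb, the called genes went both ways, with log2 fold changes of -0.53 for Fxr2, -0.63 for Ubb, 1.98 for Trim16 and 0.77 for Zswim7. Trim16 averaged 4.89 CPM against 1.29 CPM in WT, and the latter is under the 2 CPM of the filter. Beyond Itgae, within the same 10 Mb, Tlcd2 was called, as higher. It lies 5.11 Mb from Alox15, with a log2 fold change of 1.09 (edgeR adjusted p = 0.0265). The median over the 37 genes was 0.021. Haspin, inside Itgae on the opposite strand from 73135485 to 73138294, had 16.8 ± 1.67 against 18.9 ± 7.90 CPM (SD, n = 4 each), a log2 fold change of -0.20 (edgeR adjusted p = 0.890). An effect of the chromosome segment that carries the targeted gene and an effect of the gene itself cannot be told apart in this design.

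**Figure D4:**
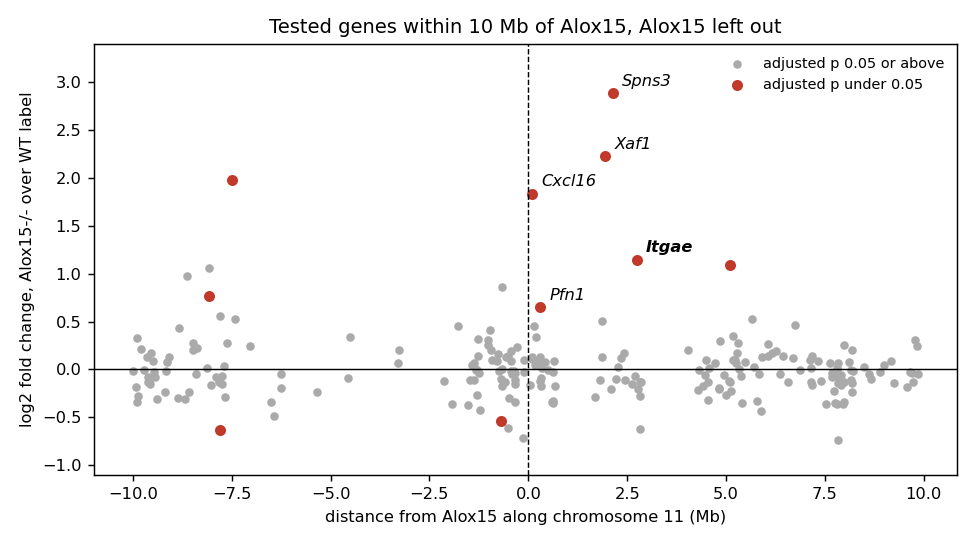
Log2 fold change, libraries labelled Alox15-/- over WT, of tested genes within 10 Mb of Alox15 on chromosome 11, against distance in Mb, with called genes in red and Alox15 left out. Itgae stands 2.74 Mb away at 1.15, beyond Cxcl16, Pfn1, Xaf1 and Spns3, among genes that mostly lie near 0.

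Across libraries the 10 genes did not rise or fall as one block. WT replicate 3, the deepest library, was the highest of the 8 for 4 genes (Foxp3, Ikzf4, Nrp1 and Lrrc32) and the lowest for 3 (Ctla4, Tnfrsf18 and Tnfrsf4). Its log2 level of Foxp3 was 0.90 above the mean of the 8 libraries, that of Lrrc32 0.72 above, that of Ikzf4 0.71 above, and that of Tnfrsf4 was -0.51 from it. WT replicate 4 differed from it most for Tnfrsf4, at 0.84, and Ikzf4, at -0.62, while Ikzf2 and Ctla4 were below their means in both libraries. Foxp3 and Lrrc32 had a Pearson's r of 0.81 over the 8 libraries (exact permutation p = 0.0346, adjusted p = 0.311), 0.65 without WT replicate 3 and replicate 1 of those labelled Alox15-/-. Their rho was 0.71 (exact permutation p = 0.0576, adjusted p = 0.346). Within groups r was 0.97 in WT and -0.08 in the libraries labelled Alox15-/- (4 libraries each), and this difference was not tested. By likeness to Foxp3 over the 8 libraries, given as a description, Chtf18 (r = 0.98), Ttc19 (r = 0.97) and Nfya (r = 0.97) came first of 9304 genes, and Lrrc32 stood at rank 175 and Ikzf4 at rank 833. Since Foxp3 was far higher in WT replicate 3 than elsewhere, this ranking may rest largely on that library. It was not repeated without it.

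**Figure D5:**
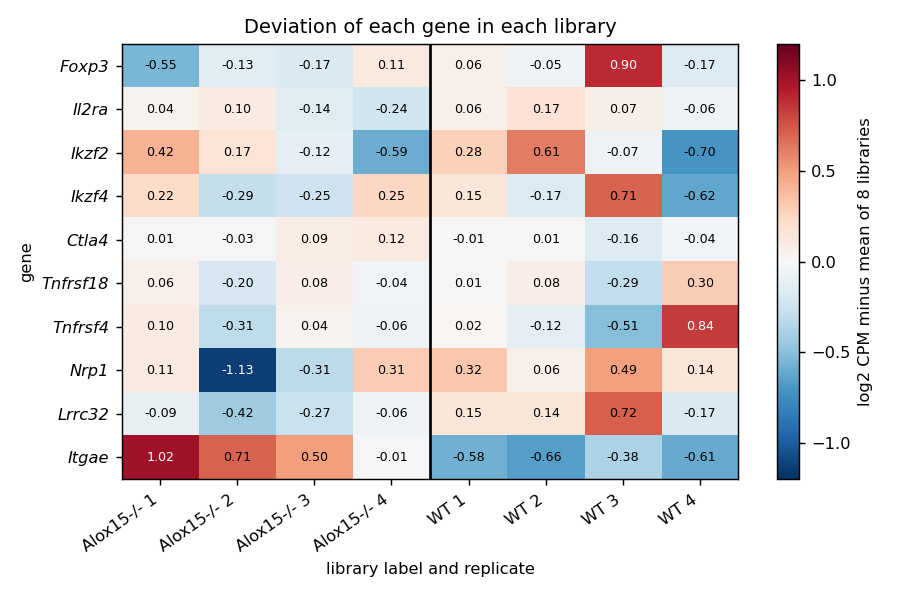
Log2 CPM of each of the 10 genes in each library minus its mean over the 8 libraries, printed in the cells and coloured from blue (below the mean) to red (above), with a line between the libraries labelled Alox15-/- and WT. Itgae splits along the line, while WT replicate 3 is high for Foxp3 (0.90) and low for Tnfrsf4 (-0.51).

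The ligands, partner chains and signalling adaptors of the 10 gene products were not called. Of 21 such genes, 20 were analysed here (Il2rg was not), 18 passed the filter (Tnfsf18 and Itgb8 did not), and 0 were called in either direction by edgeR, with 0 at an unadjusted p under 0.05, beside 1.24% and 7.84% of all tested genes. Their median log2 fold change was -0.041. Il2, the growth factor read by CD25, had 72.8, 33.5, 76.4 and 66.7 CPM in the libraries labelled Alox15-/- and 42.9, 39.4, 31.7 and 287 CPM in WT. WT replicate 4, which was highest for Tnfrsf4 and Tnfrsf18, thus stood far above the other 7 libraries for Il2, whose log2 fold change was -0.65 (edgeR adjusted p = 0.838). With no filter on low counts, and in no other setting, Il2 alone of these genes was called, as lower. No WT library other than replicate 4 lay above the Il2 mean of the libraries labelled Alox15-/-, 62.3 CPM. Il2rb, the β chain of the IL-2 receptor, had 166 against 189 CPM, a log2 fold change of -0.19 with SE 0.12. Tgfb1, the ligand that GARP tethers, had 347 against 390 CPM, with -0.17 on the same scale. The related anchor Nrros had -0.07 and the integrin chain Itgav, which releases the ligand, -0.09.

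On the costimulatory side, log2 fold changes were -0.15 for Cd28, which shares its ligands with CTLA-4, 0.02 for Icos, 0.10 for Cd80 and -0.002 for Cd86. The OX40 ligand Tnfsf4 had -0.03. The adaptors of GITR and OX40 had -0.05 for Traf1, 0.02 for Traf2, -0.02 for Traf3 and 0.14 for Traf5. For neuropilin-1, the semaphorin Sema4a had -0.12, the co-receptor Plxna1 -0.42 and the paralog Nrp2 0.61, with edgeR adjusted p-values of 0.92, 0.779 and 0.739. Cd80, Cd86, Nrp2 and Plxna1 each stood below 10 CPM, where the precision is lower.

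Regulators of Foxp3 and cofactors of its protein, listed whether they raise or lower it, were likewise not called, with exceptions in other settings. Of 36 genes, 35 were tested, 0 passed in either direction by edgeR and 2 were at an unadjusted p under 0.05, again beside 1.24% and 7.84% of all tested genes, and the median log2 fold change was -0.027. Those 2 were Irf4, at 247 ± 51.9 against 322 ± 72.8 CPM (SD, n = 4 each) with -0.38 (edgeR adjusted p = 0.561), and Gata3, at 94.7 ± 21.8 against 119 ± 4.65 CPM (SD, n = 4 each) with -0.34 (edgeR adjusted p = 0.519). The orphan receptor gene Nr4a3, the most counted of the list, had 367 ± 123 against 501 ± 148 CPM (SD, n = 4 each), with -0.45 (edgeR adjusted p = 0.668). With no filter on low counts 3 genes of the list were called, Irf4, Nr4a1 and Nr4a3, all lower, and none of these 3 was called in any other setting. Without replicate 1 of the libraries labelled Alox15-/- 1 was called, Gata3, as lower. Of 13 genes that Foxp3 is known to repress, 10 were tested, 0 were called by edgeR and 2 were at an unadjusted p under 0.05, beside the same shares of all tested genes, and the median was -0.012. Ifng had 11.7 ± 7.02 against 5.20 ± 2.50 CPM (SD, n = 4 each), a log2 fold change of 1.2 (edgeR adjusted p = 0.386), and Il7r had 19.0 ± 3.48 against 12.9 ± 3.08 CPM (SD, n = 4 each), with 0.54 (edgeR adjusted p = 0.415). Satb1, the most counted, had 0.17 (edgeR adjusted p = 0.813). With no filter on low counts, and in no other setting, 3 were called, Ifng and Il17a as higher and Il2 as lower. The Il2 level stood far above the rest in WT replicate 4, as given above. Ifng is also a product of NK and γδ T cells, whose markers were higher in the same libraries, and their part in it was not tested.

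A wider list of 36 other Treg signature genes, of which 31 were tested, had 2 called higher and 0 called lower, beside 1.24% of all tested genes called. Its median log2 fold change was 0.0064. The called genes were Il1rl1, the IL-33 receptor ST2, at 8.34 ± 7.42 against 0.739 ± 0.348 CPM (SD, n = 4 each), with 3.46 (edgeR adjusted p = 0.00615), and Fgl2, a secreted fibrinogen-like protein, at 21.9 ± 14 against 3.07 ± 0.858 CPM (SD, n = 4 each), with 2.74 (edgeR adjusted p = 0.00132). Il1rl1 reached the 2 CPM of the filter in the 4 libraries labelled Alox15-/- and in 0 WT libraries, so it was tested only through the group where it is high. It was therefore not tested when any library of that group was left out, which left Fgl2 as the 1 called gene, and with robust quasi-likelihood it was not called (adjusted p = 0.0549), whereas Fgl2 was called in all 17 alternative settings. With no filter on low counts, where 388 genes were called in all in place of 158, 6 genes of the list were called. They were Cd83, Fgl2, Il1rl1, Lag3, Nt5e and Rgs1, of which 5 were higher and Cd83 was lower. Cd83 was also called, as lower, by DESeq2. Il1rl1 is also a gene of mast cells and basophils and Fgl2 one of macrophages, whose summed markers were higher in the same libraries, and their part was not tested. A further 8 genes had an unadjusted p under 0.05 without being called. Their log2 fold changes were 0.85 for Il1r2, 0.64 for Nt5e (CD73), 0.54 for Lag3, 0.50 for Il10, 0.44 for Rgs1, -0.30 for Cish, -0.46 for Swap70 and -0.69 for Cd83, with edgeR adjusted p-values from 0.118 to 0.616. With the called ones this makes 10 of 31, beside 7.84% of all tested genes. Il1rl1, for which only a rise could be found, is among the 10, so this count is not read as a result about the list. Cish, a feedback inhibitor of IL-2 signalling and the most counted of the list, had 345 ± 13.4 against 425 ± 46.5 CPM (SD, n = 4 each).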

How the data were processed

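RNA of 8 mouse cultures was measured by MACE-seq. The values the authors deposited are counts for each gene symbol, not normalized. The submitters' notes name Bowtie, edgeR and GRCm38, the labels say that reads were cleaned and trimmed, and the counting tool, annotation and handling of strand and duplicate reads are not given in the sources used here. The methods name a MACE-seq kit and the labels a small RNA kit of the same maker. Columns were assigned to libraries by name, with 4 libraries a group. The design text states 4 mice a group, and no label ties a library to its mouse, so p-values measure the spread between these libraries.

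The test covered the 12700 of 28239 symbols that reached 2 CPM in 4 or more libraries. Counts were scaled by TMM in edgeR 4.0.16 (R 4.3.3) and compared with its quasi-likelihood test, group as the only term, with Benjamini-Hochberg adjustment over all genes tested and a threshold of 0.05. The SE is the log2 fold change divided by the square root of F, and intervals are at 95%. The biological coefficient of variation was 14.5%. Total counts ran from 3723151 to 9538962, and no pair of libraries of a group agreed within sampling noise. Summed marker levels were compared as log2 (CPM + 1) by exact permutation tests in scipy 1.17.1. Correlations were taken on log2 CPM with a prior count of 2, and their exact permutation p-values came from all orderings of the libraries. The GENCODE annotation (GRCm38) gave the positions, and 97.0% of tested symbols had 1. The steps were tested on simulated data.

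The genes and lists were chosen with earlier results of these data known. The genes named are the 10 Treg genes, all partners, from each other list those called, those at an unadjusted p under 0.05 and the most counted, Alox15, and the 3 genes most like Foxp3 (mean of at least 10 CPM). Ccdc22, Haspin, Trdc, Ms4a1, Fxr2, Ubb, Trim16, Zswim7, Tlcd2, Nr4a1, Il17a and the genes between Alox15 and Itgae were added after their values were seen. Alternatives were other scalings, other filters, robust quasi-likelihood, DESeq2 1.42.0, limma-voom (limma 3.58.1), the replicate number as a block, and each library left out. Protein data of the study were not used here.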

Additional observations from a re-analysis of the deposited data

Results flagged for a closer look

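In the WT group, the Foxp3 level of replicate 3, 194 CPM, lay apart from the other libraries, the nearest of which was at 109 CPM and the lowest at 92.9 CPM. The gap was 0.844 of the range of the group. The same library was highest of all for Ikzf4, Nrp1 and Lrrc32, although none of these 3 was far enough from the rest of the group to be singled out by that measure.

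The summed level of the 2 CD8 T cell markers in WT replicate 2, 21.3 CPM, was below the other WT libraries, which ran from 29.9 to 31.6 CPM, a gap of 0.838 of the range. These are 2 of 40 groups of values examined in this way, and chance alone singles out about 1 group in 20.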

How the results depend on the processing

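Itgae was called in all 17 alternative settings, and none of the other 9 Treg genes was called in any of them except Foxp3 with no filter on low counts, at a log2 fold change of -0.45 (edgeR adjusted p = 0.0189). That setting also gave 388 called genes in place of 158, 2 called Treg genes in place of 1, 1 called partner and 3 called genes each among Foxp3 regulators and Foxp3-repressed genes in place of 0, and 6 other signature genes in place of 2. The number of genes tested there is not given here, so these counts stand without a share. For some genes that setting gave far smaller p-values at nearly the same effect. The unadjusted edgeR p of Alox15 was 9.5e-99 in place of 3.4e-09, at log2 fold changes of 3.62 and 3.65. Calls made only there are therefore not read as differences between the groups. With each library left out in turn, the number of called genes was from 86 to 173, that of other signature genes from 1 to 2 and that of Foxp3 regulators from 0 to 1, the log2 fold change of Foxp3 from -0.53 to -0.11 and that of Itgae from 0.98 to 1.32. Lrrc32 had an unadjusted p under 0.05 in 15 of the 17 settings and never passed after adjustment. Uncalled differences changed sign for Tnfrsf18 scaled to T cell genes (0.018) and without WT replicate 4 (0.040), Ikzf2 without replicate 4 of the libraries labelled Alox15-/- (0.059) and without WT replicate 2 (0.11), Ikzf4 without WT replicate 3 (0.19), Tnfrsf4 without WT replicate 4 (0.14), and the B cell sum by library total (-0.011) and without replicates 1 and 2 of the libraries labelled Alox15-/- or WT replicate 4 (-0.070, -0.042 and -0.12). With each library left out, the log2 fold change ran from -0.29 to 0.11 for Ikzf2, from -0.27 to 0.19 for Ikzf4, from -0.15 to 0.040 for Tnfrsf18, from -0.35 to 0.14 for Tnfrsf4 and from -0.63 to -0.21 for Nrp1. The causes were not tested. With 1 library left out, the exact test of the marker sums cannot pass the threshold, so those values say nothing about their stability. With the replicate number as a block, 146 genes were called, 1 of them a Treg gene, Foxp3 had a log2 fold change of -0.37 (edgeR adjusted p = 0.722) and no call among the 10 genes changed, while 3 other signature genes were called in place of 2, the third being Cd83, as lower. DESeq2 called the same 3. Whether the numbers pair the libraries is not given in the sources used here. In deviations from the group mean, same-numbered libraries had correlations of 0.069, 0.17, -0.18 and -0.018. By these, 1 of the 4 labelled Alox15-/- was most like the WT library of its own number. Such correlations cannot settle whether libraries were prepared in pairs. The lowest counts, 45 for Nrp1, 68 for Itgae and 92 for Lrrc32, limit the precision of those genes most.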
